A study of Mus musculus with 24 samples.

Results

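Mediator is the large protein complex that carries signals from DNA-bound transcription factors to RNA polymerase II. Its core has a head, a middle and a tail joined by the Med14 backbone, and a separable kinase module of Cdk8 or Cdk19, cyclin C, Med12 or Med12l and Med13 or Med13l binds the core and limits its contact with the polymerase. A fully grown oocyte has stopped transcribing, so the Mediator transcripts of an ovulated egg are a stored maternal supply, made earlier and used or degraded around the start of embryonic transcription. Members were taken by symbol from the table of gene levels, as every symbol of Med followed by a number with or without a final l, plus Cdk8, Cdk19 and Ccnc. This gave 33 of 25965 entries, of which 32 reached the mean of 1 RPM needed for testing, among 10987 tested entries. Levels are given in RPM, reads per 1000000 reads of a library. Med28, a subunit at the border of head and tail, was the starting point: it had already been seen to be lower in transgenic oocytes in all 4 sequencing lanes, and the question was whether the other subunits go with it.

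The study compared single oocytes from adult female mice after natural ovulation. One group was Thy1.2-AMHTg/0, with a transgene that places anti-Müllerian hormone (AMH) under the Thy1.2 promoter, a promoter best known for driving expression in neurons, and the other was wild type (Thy1.2-AMH0/0), with no other allele or agent named for either. Each genotype had 4 females, 1 per lane, with 2 or 3 oocytes each, and the female was the replicate (n = 4 per genotype). Values of 10 transgenic and 11 wild-type oocytes and of 1 control RNA supplied with the amplification kit were analysed, of the 24 samples the labels list.

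Oocyte libraries held 20441302 to 33341040 reads, so that 3 reads stood for 0.0900 to 0.147 RPM. The median share of reads in listed genes was 93.3% for transgenic and 92.2% for wild-type libraries, and the share was highest in the 2 transgenic oocytes of lane 1 (94.2% and 94.8%, against at most 93.6% in the other transgenic oocytes). Amh itself had 0 reads in the transgenic oocytes and 1 read in the wild-type oocytes, which does not check the genotype labels, since AMH is a product of follicle cells and the transgene's sequence is not given. The labelled cell type had its defining transcripts: 12 egg genes such as Gdf9, Zp3 and Mos summed to 24621 to 44824 RPM in every oocyte, against 24.1 RPM in the control RNA. A list of 17 cumulus and granulosa genes summed to 0.0972 to 3.42 RPM in transgenic and 0.520 to 39.5 RPM in wild-type oocytes, with Foxl2 and Pgr at 0 in all. Of 6 blood genes 5 were at 0 in all oocytes, with sums of at most 0.411 RPM. The part of these cell markers and of the share of reads in genes in the differences below was not tested.

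Apart from Med28, the Mediator members were evenly split between the directions. Of the 32 tested members 16 were lower and 16 higher in transgenic oocytes, whatever the size, against 52.2% lower among all tested genes. Their median log2 difference was -0.01, and it was 0.00 over the 31 members other than Med28, against -0.01 over all tested genes. No member passed the threshold, and neither did any other gene: limma on the female means called 0 of 10987 genes (0%), with Benjamini-Hochberg adjusted p-values from 0.724 to 0.999 for the members. Within the complex the split was uneven by position, given here as counts only. Lower were 7 of 9 middle subunits and all 3 tested border subunits, of which Med28 was lower by choice. The other border subunits, Med27 and Med30, were at -0.08 and -0.13, each lower in 2 lanes and higher in 2. All 5 tail subunits were higher. At an unadjusted p under 0.05 there were 3 members lower, Med28, Med6 and Med4, which is 9.38% of the members against a background of 4.03% of all genes, and 0 members higher against a background of 2.78%. Med28 is in that count by choice; among the 31 others it was 2, or 6.45%.

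**Figure D1:**
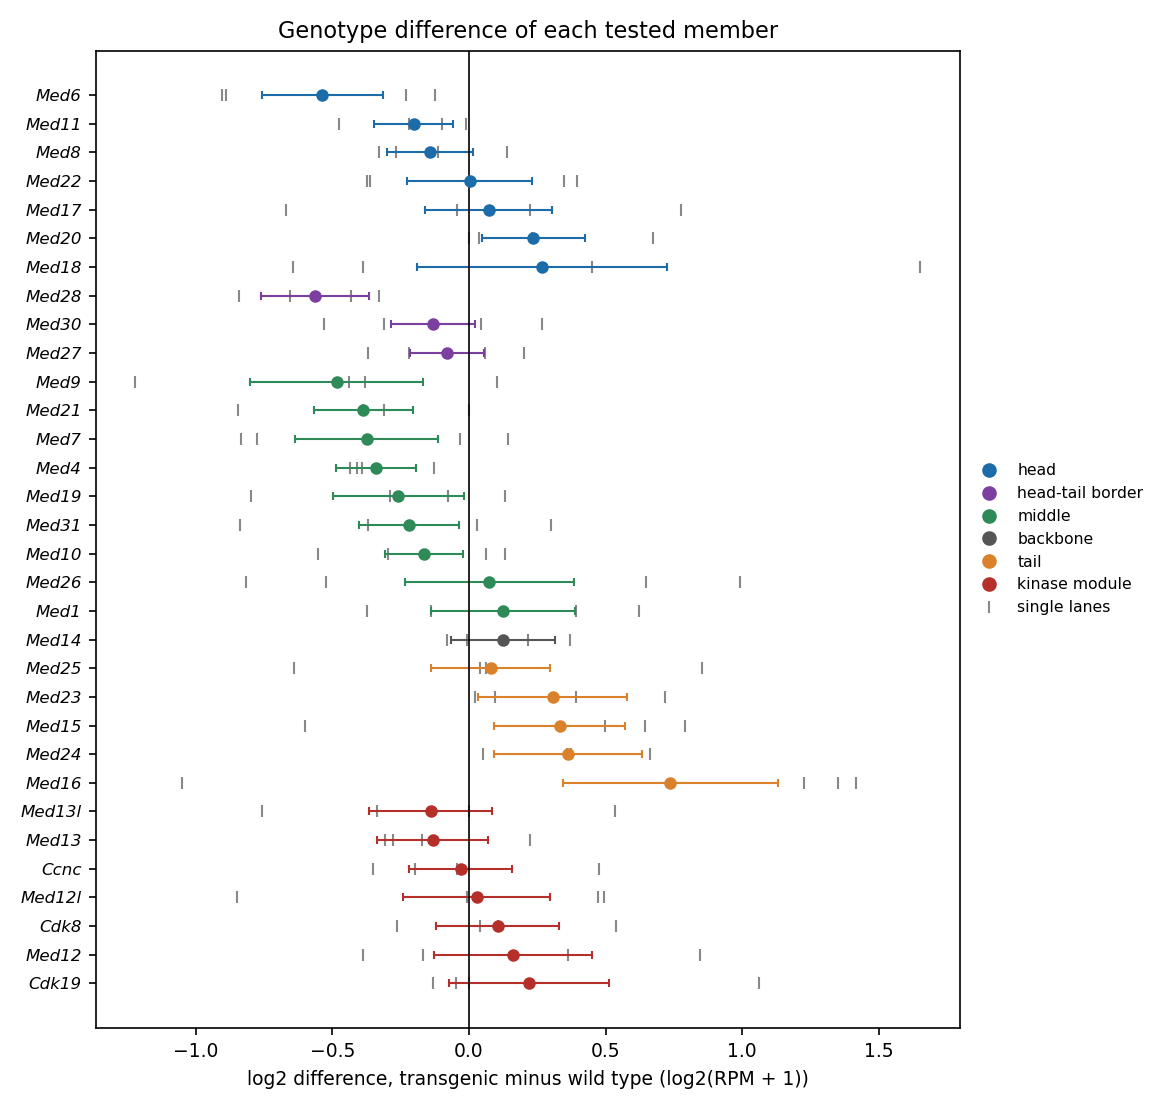
Log2 difference between transgenic and wild-type females on the log2(RPM + 1) scale for the 32 tested members, grouped by place in the complex. Points are differences of the means over 4 females per genotype, bars their standard errors, and grey ticks the differences within single lanes. Med28 and Med6 lie farthest to the left at -0.56 and -0.54, Med16 farthest to the right at 0.74, and the ticks of most members fall on both sides of 0.

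Med28 lies at chr5:45520221-45529276 on the plus strand (GRCm38), and in lanes 1 to 4 the transgenic females stood at 200.3, 218, 248 and 297 RPM. The wild-type females of the same lanes stood at 316, 295, 311 and 547 RPM. Each transgenic female was below her lane mate, and the groups overlapped by a narrow margin, since the transgenic female of lane 4 was just above the wild-type female of lane 2. Single oocytes ran from 175 to 307 RPM with a median of 224 RPM in the transgenic group, and from 268 to 671 RPM with a median of 315 RPM in the wild-type group. Of the 10 transgenic oocytes 7 were below every wild-type oocyte, and 6 of the 11 wild-type oocytes were above every transgenic one. Group means were 241 ± 42.2 and 367 ± 120 RPM (SD over 4 females each), and the log2 difference was -0.56 ± 0.20 (SE), with -0.65, -0.43, -0.33 and -0.84 in lanes 1 to 4.

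As Med28 was picked for its direction, these values describe it and are not evidence for it. The wild-type female of lane 4 (2 oocytes) set much of the size: the other 3 wild-type females averaged 307 ± 10.7 RPM, and without her the log2 difference was -0.37. When oocytes were fitted singly, with a random effect for the female and a block for the lane, limma gave Med28 an adjusted p of 0.0289 with a difference of -0.54, and Med28 was the only member among the genes called lower (8 of 10987, 0.0728%). Sister oocytes share a female, and on female means the adjusted p of Med28 was 0.724.

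**Figure D2:**
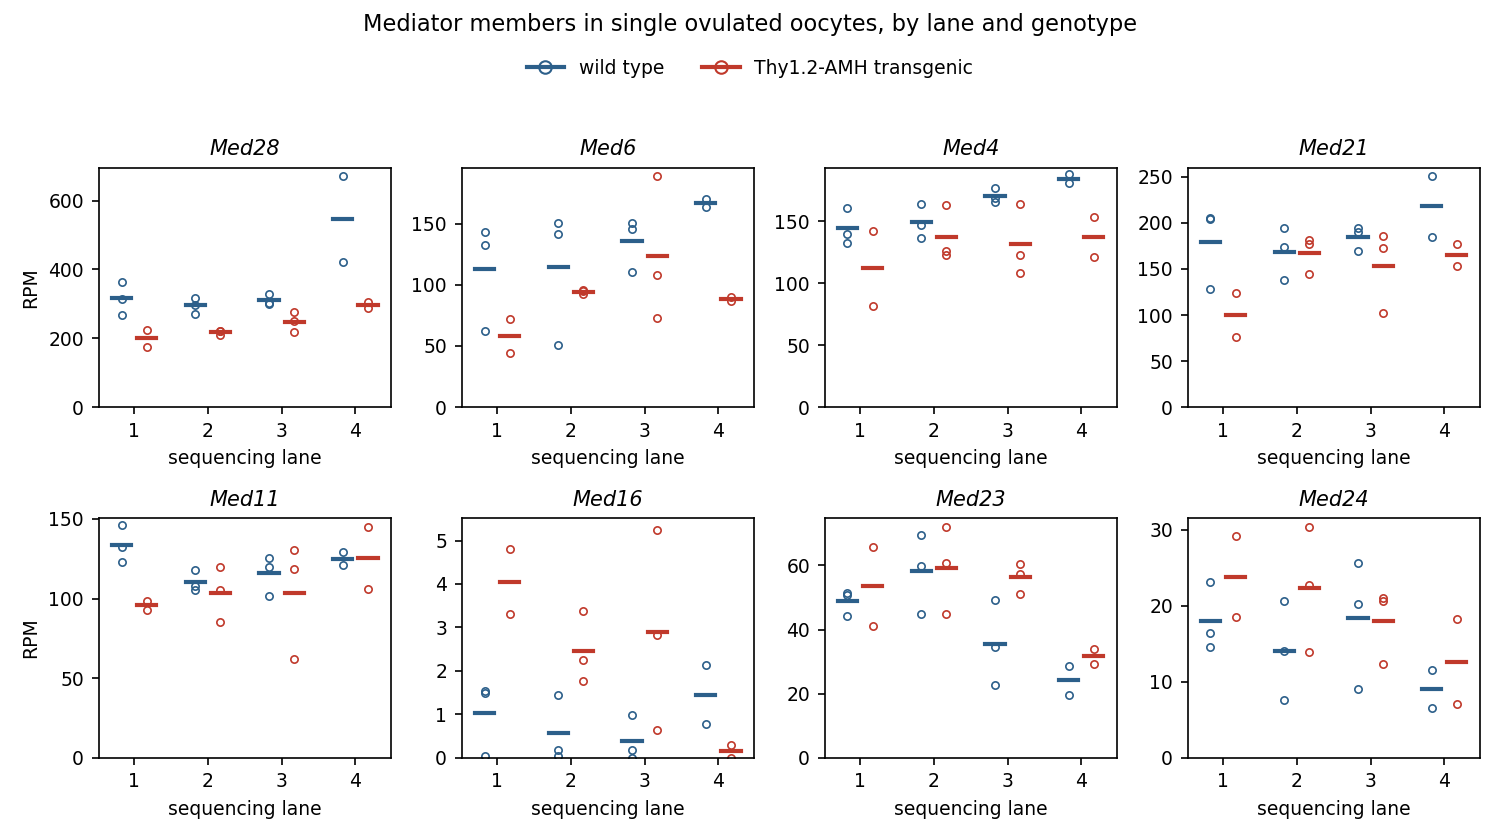
RPM of 8 Mediator members in single oocytes (open circles) and their mean per female (bars), by sequencing lane, for wild-type and Thy1.2-AMH transgenic mice, with each vertical axis starting at 0. Med28 female means are 200.3 to 297 RPM in transgenic and 295 to 547 RPM in wild-type mice, Med4 and Med21 female means do not overlap between genotypes, and Med16 is reversed in lane 4.

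The head contacts the polymerase and general factors, and its members had no common direction. Med6, one of the most conserved head subunits (chr12:81573557-81595008, minus strand), stood at 58.2, 94.2, 123 and 88.5 RPM in transgenic and 113, 114, 135 and 167 RPM in wild-type females of lanes 1 to 4. It was lower in transgenic oocytes in all 4 lanes, though the groups overlapped through the lane 3 transgenic female. The log2 difference was -0.54 ± 0.22 (91.0 ± 26.6 against 132 ± 25.1 RPM; limma unadjusted p = 0.0307, adjusted p = 0.724), and leaving out the transgenic female of lane 1 gave -0.34. Single oocytes overlapped widely, from 44.4 to 189 RPM in the transgenic and from 51.0 to 169.8 RPM in the wild-type group.

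Med11 and Med22 form a pair at the base of the head, and only Med11 had 1 direction. Med11 (chr11:70451919-70453727, plus strand) stood at 95.7, 104, 104 and 125.5 RPM in transgenic and 134, 110.3, 116 and 125.2 RPM in wild-type females. By the mean of log2 values it was lower in all 4 lanes, but in lane 4 the difference was only -0.01 and the RPM means were in the other order; over all females the log2 difference was -0.20 ± 0.15. Med22 had a difference of 0.00 ± 0.23, made of -0.37 and -0.36 in lanes 2 and 3 and 0.35 and 0.40 in lanes 1 and 4. Med18 and Med20 form the movable jaw of the head. Med20 (chr17:47611582-47624418, plus strand) was higher in all 4 lanes by the mean of log2 values, at 0.68, 0.00, 0.23 and 0.04. In lane 2 its RPM means were in the other order, at 181.3 in the transgenic and 181.5 in the wild-type female. Lane 1 made most of its difference of 0.24 ± 0.19, and leaving out the lane 1 transgenic female gave 0.12. Med18 was the least even member among sister oocytes, from 0.756 to 27.7 RPM in transgenic and 2.83 to 29.1 RPM in wild-type oocytes. Med8 and the head scaffold Med17 had differences of -0.14 ± 0.16 and 0.07 ± 0.23.

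At the border of head and tail, Med27 and Med30 were, with Med10 of the middle, the most abundant members by RPM. Med27 (chr2:29346819-29524793, plus strand) averaged 1075 ± 158 RPM over transgenic and 1134 ± 78.6 RPM over wild-type females, with a log2 difference of -0.08 ± 0.13. Med30 (chr15:52712445-52730431, plus strand) stood at 626 ± 93.1 and 688 ± 101 RPM, a difference of -0.13 ± 0.15. For both, 2 lanes were lower and 2 higher, and the ranges of the females overlapped. Med29, the other border subunit (chr7:28386146-28392708, minus strand), had few reads and was not tested. It had 35 reads over the 10 transgenic and 75 reads over the 11 wild-type oocytes, 0 to 18 reads per oocyte.

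In the middle, Med7 and Med21 form the hinge. Med4 (chr14:73510049-73518545, plus strand) stood at 112, 137, 132 and 137 RPM in transgenic and 145, 149, 170.4 and 185 RPM in wild-type females. The groups did not overlap, with a log2 difference of -0.34 ± 0.15 (130 ± 11.9 against 162 ± 18.7 RPM; limma unadjusted p = 0.0361, adjusted p = 0.724), and 6 of 10 transgenic oocytes were below every wild-type oocyte. Med21 (chr6:146642547-146650602, plus strand) stood at 99.9, 168, 153 and 165 RPM in transgenic and 179, 169, 185 and 218 RPM in wild-type females. Its groups were also separate, but by 0.00 on the log2 scale within lane 2, and the difference of -0.39 ± 0.18 (limma unadjusted p = 0.0539, adjusted p = 0.735) was -0.21 without the transgenic female of lane 1.

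Med4 and Med21 were the 2 members, 6.25%, whose transgenic females were all below the wild-type females, against 2.64% of all tested genes, and 0 members were all above, against 1.67%. The remaining middle subunits overlapped between genotypes. Med9 had a difference of -0.49 ± 0.32 with 11.0 ± 4.65 against 15.5 ± 5.57 RPM, higher in lane 4 alone, and Med7 one of -0.38 ± 0.26 with 25.6 ± 7.35 against 33.7 ± 10.0 RPM. Med31, a small subunit of the middle (chr11:72211724-72215592, minus strand), stood at 141, 254, 199 and 195 RPM in transgenic and 259.6, 206, 256 and 189 RPM in wild-type females, with the transgenic female lower in lanes 1 and 3 and higher in lanes 2 and 4 (-0.22 ± 0.18, or -0.07 without the transgenic female of lane 1). Med19 and Med10 had differences of -0.26 and -0.16. Med26, which binds elongation factors, and Med1, the subunit that nuclear receptors contact, had differences of 0.07 ± 0.31 and 0.12 ± 0.26. The median over the 9 middle subunits was -0.26. Leaving out the transgenic female of lane 1 gave -0.08, and leaving out the wild-type female of lane 3 gave -0.16. Med14, the backbone, stood at 35.7 ± 3.36 and 33.0 ± 7.22 RPM, a difference of 0.12 ± 0.19.

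The tail binds activators, and its 5 members had higher means in transgenic oocytes, with a median difference of 0.33 and none past the threshold. Med16 (chr10:79894708-79908923, minus strand) stood at 4.06, 2.46, 2.91 and 0.150 RPM in transgenic and 1.02, 0.562, 0.392 and 1.46 RPM in wild-type females of lanes 1 to 4. It was higher in the transgenic females of lanes 1 to 3 and lower in lane 4, where 1 transgenic oocyte had no reads. Its log2 difference was 0.74 ± 0.39 (limma unadjusted p = 0.0844, adjusted p = 0.760), 1.18 without the transgenic female of lane 4 and 0.47 without that of lane 1; on this scale low values are compressed, and with a pseudocount of 0.1 it was 1.30.

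Med24, which stands beside Med23 and Med16 in the tail (chr11:98704591-98729435, minus strand), stood at 23.8, 22.3, 18.0 and 12.6 RPM in transgenic and 18.0, 14.1, 18.3 and 8.99 RPM in wild-type females. By the mean of log2 values it was higher in all 4 lanes, though the RPM means of lane 3 were in the other order, and the groups overlapped (0.36 ± 0.27). Med23, a contact of growth factor-driven activators (chr10:24869986-24913681, plus strand), stood at 53.5, 59.2, 56.3 and 31.6 RPM against 48.8, 58.1, 35.4 and 24.2 RPM, a difference of 0.31 ± 0.27. Leaving out the wild-type female of lane 4 gave 0.16 for Med24 and 0.08 for Med23, and the median of the tail was 0.16. Med15, a partner of sterol-sensing activators (chr16:17651221-17722930, minus strand), stood at 360.4, 126, 174 and 209.7 RPM against 175, 203, 109.8 and 148 RPM. It was higher in transgenic oocytes in lanes 1, 3 and 4 and lower in lane 2, with a difference of 0.33 ± 0.24. In the transgenic female of lane 1 its oocytes stood at 145 and 575 RPM; leaving her out gave 0.13, and leaving out the wild-type female of lane 3 gave 0.18. Med25 (0.08 ± 0.22) was also lower in lane 2, with a difference of -0.64. Without the transgenic female of lane 1 Med25 was at -0.13, so 4 of 5 tail members were then higher.

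Counts of lanes gave a similar split. Lower in all 4 lanes were 5 members, Med28, Med6, Med4, Med21 and Med11, 15.6% against 10.3% of all tested genes; without Med28, one of them by choice, it was 4 of 31, or 12.9%. Higher in all 4 lanes were 3 members, Med20, Med23 and Med24, 9.38% against 7.97%. The lanes themselves differed: 21, 20, 18 and 12 of the 32 members were lower in transgenic oocytes in lanes 1 to 4, with medians of -0.19, -0.13, -0.04 and 0.06. These are 65.6%, 62.5%, 56.3% and 37.5% of the members, against 51.0%, 58.9%, 51.6% and 44.9% of all tested genes. All tested genes had medians of -0.02, -0.09, -0.01 and 0.05 in those lanes. Med27, Med30, Med10 and Med31, seen together only after their values were known, were each lower in lanes 1 and 3 and higher in lanes 2 and 4. Outside the complex, Gtf2a2 and Taf13 had the same order of lanes. The share of all tested genes with this order was not counted, so it is no result about the members.

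The kinase module was described by its paralogue pairs, whose members replace each other in the module. Cdk8 (chr5:146231230-146302874, plus strand) stood at 55.6, 65.8, 66.4 and 47.8 RPM in transgenic and 66.9, 64.4, 61.2 and 32.6 RPM in wild-type females, and Cdk19 (chr10:40349308-40483818, plus strand) at 0.755, 1.61, 0.687 and 1.75 RPM and 0.845, 1.89, 0.787 and 0.174 RPM. Cdk8 was far above Cdk19 in every female. Transgenic females had a log2 ratio of Cdk8 to Cdk19 of 4.84 ± 0.44 and wild-type females one of 4.96 ± 0.35 (difference -0.12, exact permutation test over the females, two-sided, p = 0.686). On the log2(RPM + 1) scale a gene near 1 RPM such as Cdk19 is compressed, and with a pseudocount of 0.1 the difference was -0.54.

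Med12, which activates the kinase (chrX:101274030-101297465, plus strand), stood at 4.70 ± 2.10 and 3.88 ± 1.28 RPM in transgenic and wild-type oocytes, and its paralogue Med12l (chr3:59006978-59318410, plus strand) at 9.64 ± 3.68 and 9.37 ± 1.82 RPM. Their log2 ratio was -0.95 ± 0.33 and -1.09 ± 0.27 (difference 0.13, exact permutation p = 0.600). Med13, the link of the kinase to the core (chr11:86267033-86357602, minus strand), stood at 56.1 ± 16.6 and 59.4 ± 7.55 RPM and Med13l (chr5:118560719-118765435, plus strand) at 38.2 ± 10.2 and 40.9 ± 8.11 RPM. The ratio of Med13 to Med13l was 0.55 ± 0.41 and 0.54 ± 0.23 (difference 0.01, exact permutation p = 1). Over the 3 ratios every adjusted p was 1, and with 4 and 4 females the smallest p is 0.0286. Cyclin C (Ccnc), shared by both kinases, differed by -0.03 ± 0.19, and the median of the 7 kinase module genes was 0.03.

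Read levels of the subunits were far from equal in the oocyte. Divided by the length of the longest annotated transcript, the mean over 8 females was highest for Med27 (655 RPM per kb), Med30 (653) and Med31 (183), and lowest among all members for Med16 (0.508), Med29 (0.184) and Cdk19 (0.183). Med27 and Med30 do not differ beyond their spread over females (1104 ± 120 RPM for Med27, 657 ± 95.6 RPM for Med30, with transcripts of 1.69 and 1.01 kb), nor do Med29 and Cdk19. With the principal transcript in place of the longest, a choice added after the values were seen, the order began Med27 (881 RPM per kb), Med10 (717), Med30 (653), Med22 (378), Med21 (292) and Med31 (183). The ratio between the highest and the lowest tested member per kb was 3577 in oocytes and 16.4 in the control RNA.

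The control RNA, whose source the labels do not give, served as a reference for RNA of another origin in 1 library. In it Med27, Med30 and Med10 stood at 29.7, 24.05 and 31.8 RPM, against 1104, 657 and 655 RPM in oocytes, which is 37.2-, 27.3- and 20.6-fold higher in oocytes. These 3 made up 49.3% of all Mediator RPM in oocytes and 6.61% in the control RNA. Cdk19, Med16 and Med29 lay on the other side, at 70.5, 78.8 and 9.07 RPM in the control RNA against 1.06, 1.63 and 0.236 RPM in oocytes, or 66.3-, 48.5- and 38.4-fold lower in oocytes. Med24 (7.44-fold lower) and Med12 (4.31-fold lower) followed. Of the 32 tested members 22 (68.8%) were above the control RNA, against 49.2% of all tested genes. More than 10-fold above were 5 (15.6%) and more than 10-fold below 2 (6.25%), against 17.5% and 14.7% of all tested genes. Testing needed a mean of 1 RPM in oocytes and not in the control RNA. Genes scarce in oocytes, Med29 among them, are therefore missing from these shares, which lowers the shares below the control RNA. With 1 control library there is no replicate check, and Cdk19 had no reads in 1 of the 21 oocytes, Med16 in 2 and Med29 in 4.

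**Figure D3:**
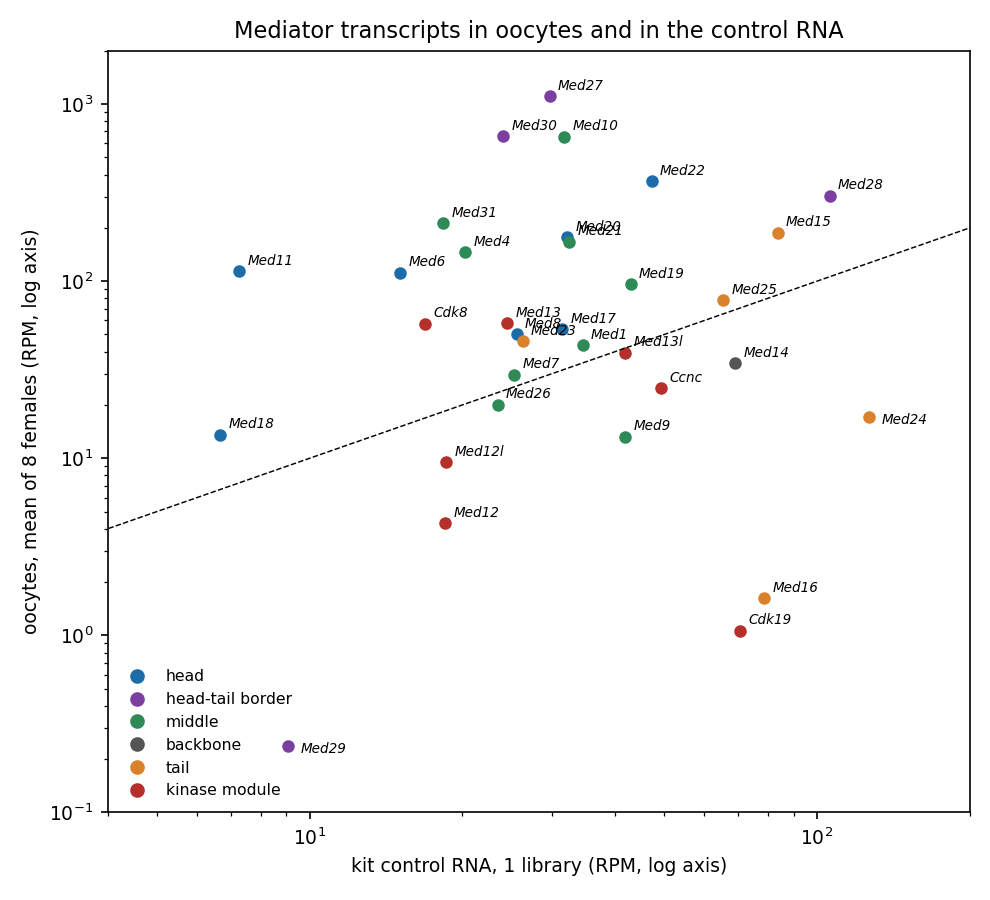
Mean RPM over 8 females (vertical, log axis) against RPM in the single kit control RNA library (horizontal, log axis) for the 33 members, coloured by place in the complex; the dashed line marks equal levels. Med27, Med30 and Med10 lie highest, and Cdk19, Med16 and Med29 lie far below the line.

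The paralogues of the kinase module also had another balance in oocytes. Per kb of longest transcript, Cdk8 was 80.7-fold above Cdk19 in oocytes, while Cdk19 was 2.80-fold above Cdk8 in the control RNA. Med12l was 1.40-fold above Med12 in oocytes and Med12 was 1.58-fold above Med12l in the control RNA. Med13 was 1.29-fold above Med13l in oocytes and Med13l was 1.94-fold above Med13 in the control RNA. Cdk19 shares exon bases with the antisense gene Cdk19os, Med12 with Gm21986 and Med12l with Igsf10, and whether strand was kept is not given, so these levels may hold reads of their neighbours.

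Added over all 33 members, Mediator transcripts summed to 4448, 4982, 4465 and 4947 RPM in transgenic and 5215, 5080.1, 5053 and 4989 RPM in wild-type females of lanes 1 to 4 (4710.1 ± 294 and 5084 ± 94.9 RPM; 1295 RPM in the control RNA). These sums were apart by a narrow margin, from 4982 RPM as the highest transgenic to 4989 RPM as the lowest wild-type sum. Med28, which was picked for its direction, is part of them. Without Med28 the sums were 4247, 4763, 4216 and 4650.2 RPM in transgenic and 4899, 4785, 4742 and 4443 RPM in wild-type females, so the groups overlapped and lane 4 had the other order. No test was made of a sum over chosen members.

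Sister oocytes were more alike in most members than in the typical gene. The pooled SD among sister oocytes (13 degrees of freedom, log2(RPM + 1)) had a median of 0.33 over the 32 tested members against 0.41 over all tested genes, and 22 of 32 were in the lower 50% of all genes. Med30 was the most even at 0.09, then Med10 at 0.15, and Med28 was at 0.19. Med18 was the least even at 1.13, with Med16 at 0.63 and Med24 at 0.58. Med30 and Med10 averaged 657 and 655 RPM over the females, and Med18, Med16 and Med24 averaged 13.6, 1.63 and 17.0 RPM. Members and other genes were not matched by level, and the part of level in this spread was not tested.

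Transcript length went with the genotype difference, in the members as in all genes. Across the 32 tested members Pearson's r between log length of the longest transcript and the log2 difference was 0.39 (0.45 over the 31 without Med28), and across 10886 tested genes with a length it was 0.29; genes share their libraries, so these describe the libraries and have no p. Members of up to 2 kb were lower in 8 of 9 cases (Med6, Med9, Med21, Med31, Med11, Med8, Med30 and Med27, but not Med18), with a median of -0.20. Genes of that length were lower in 74.4% of cases with a median of -0.19. Of the 11 members from 2 to 4 kb 4 were lower with a median of 0.07, against 49.5% and 0.00 for all genes. Of the 12 members above 4 kb 4 were lower with a median of 0.12, against 41.9% and 0.05. Med28 has a transcript of 4.56 kb. It was picked for being lower, so its place below the other long members goes with that choice. The part of length in the module counts was not tested.

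**Figure D4:**
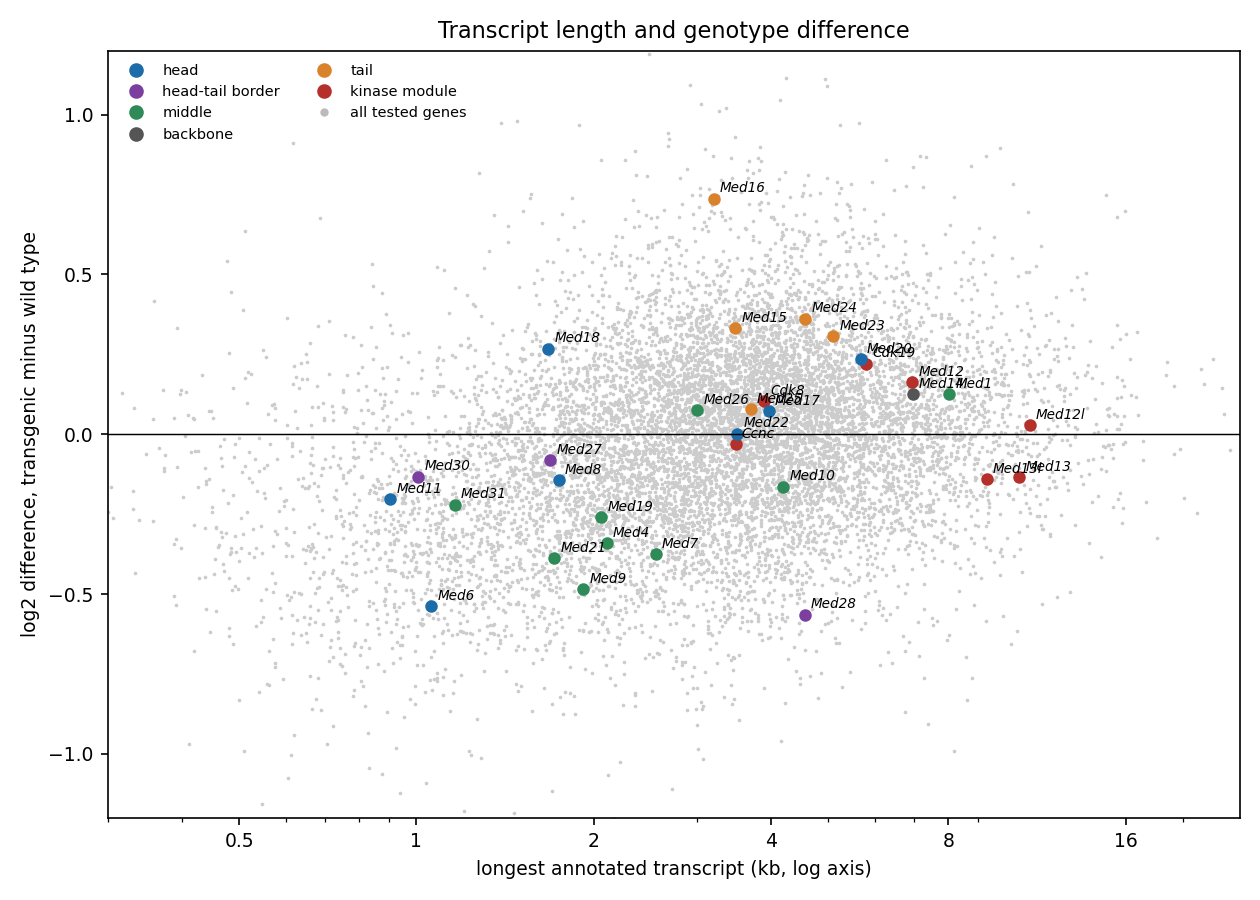
Length of the longest annotated transcript (kb, log axis) against the log2 difference, transgenic minus wild type, for all tested genes (grey; 28 lie beyond the axes) and for the 32 tested members, coloured by place in the complex. Short members lie mostly below 0 as short genes do. Med28, picked for being lower, lies at -0.56 with a transcript of 4.56 kb.

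The end of the transcript is of interest in eggs, where stored mRNAs are shortened or lengthened at their poly(A) tails through the polyadenylation signal and a cytoplasmic polyadenylation element just before it. The last 100 bases of each member's principal transcript (GENCODE M21, GRCm38) were searched on the sense strand for the signal AATAAA, its variant ATTAAA and the element TTTTAT or TTTTAAT; the element TTTTAAT can overlap AATAAA. The sites below are those of Med28, of both other members with an unadjusted p under 0.05, of Med11 and Med31 as abundant short members with the element, and of Cdk19 as a scarce member with it. Each is 30 bases, 5′ to 3′ on the transcript strand, with the signal and the element in capitals.
Med28, chr5:45529230-45529259, plus strand: gtctgtatactctctccatcATTAAAgttt
Med6, chr12:81573577-81573606, minus strand: ccagtatatatctttaaaacAATAAAgtta
Med4, chr14:73518504-73518533, plus strand: taaatactgtaatttgtgtaAATAAActtg
Med11, chr11:70453683-70453712, plus strand: caggaactaagtgTTTTAATAATAAAagct
Med31, chr11:72211734-72211763, minus strand: tagttggcaaattTTTTATtAATAAAttat
Cdk19, chr10:40483778-40483807, plus strand: taTTTTATattcttggttgaAATAAAaatt

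Med28 and Med9 were the 2 members with ATTAAA and no AATAAA (6.06% of 33, against 14.7% of 10255 transcripts of tested genes). AATAAA was found in 22 members (66.7%, against 66.4%), and 9 members had neither in this window (27.3%, against 19.0%), Med21 and Med16 among them. The element was found in 7 members, Med11, Med10, Med19, Med31, Med15, Med24 and Cdk19 (21.2%, against 20.5%). Members with the element thus included some of the most abundant (Med10, Med31) and 1 of the scarcest (Cdk19). A match describes the letters only. The length of the poly(A) tails was not measured, and its part in the read levels was not tested.

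Other genes of the transcription machinery, from lists of textbook membership, were set beside the complex. All tested genes, for comparison, were lower in 52.2% of cases, and 4.03% were lower and 2.78% higher at an unadjusted p under 0.05. Of the 12 subunits of RNA polymerase II 11 were lower, with a median of -0.33, and 3 (25%) at an unadjusted p under 0.05: Polr2i (17.6 ± 7.45 against 25.8 ± 4.57 RPM, -0.64 ± 0.26), Polr2j (199 ± 42.0 against 278 ± 76.8 RPM, -0.47 ± 0.20) and Polr2l (2.23 ± 0.612 against 5.16 ± 3.63 RPM, -0.80 ± 0.33). These 3 have transcripts of 0.819 to 1.65 kb, while Polr2a, the catalytic subunit, with one of 6.74 kb had a difference of -0.02 ± 0.22. The shortest, that of Polr2k (0.601 kb), went with -0.29, and that of Polr2e (2.40 kb) with -0.51. Of all tested genes of up to 2 kb, 74.4% were lower. The part of length in the polymerase subunits was not tested. Much of Polr2l and Polr2j came from lane 4, at -1.95 and -1.08 there, and without its wild-type female they were at -0.44 and -0.29. Leaving out the lane 1 transgenic female moved Polr2i to -0.41 and the median of the polymerase subunits to -0.21. Of 35 tested genes of the general transcription factors 22 (62.9%) were lower with a median of -0.07, among them Taf10 (153 ± 36.8 against 199 ± 32.5 RPM, -0.41 ± 0.18, or -0.26 without the lane 1 transgenic female) as the 1 at an unadjusted p under 0.05. Of 20 tested elongation genes 9 (45.0%) were lower with a median of 0.07. Cyclin T1 (Ccnt1), the partner of the elongation kinase Cdk9, stood at 63.9 ± 9.89 against 45.1 ± 5.59 RPM (0.48 ± 0.17) and was the 1 at an unadjusted p under 0.05. None of these genes passed on the adjusted scale (limma adjusted p of 0.724 for Polr2i, Polr2j, Polr2l and Ccnt1).

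Of the 33 members 18 share exon bases with another annotated gene, 15 of them with one on the opposite strand and 4 with one on the same strand. Med28, Med6, Med4, Med11, Med16 and Med30 are among the 15 with none. Med10 shares 4168 bases with Gm26819, Med20 1569 bases with Kpna2-ps, and Med21 197 bases with Tm7sf3 and 348 with Gm6654, so their levels may hold reads of these neighbours.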

How the data were processed

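Each denuded oocyte was lysed and amplified by SMART-Seq v4, and ThruPLEX libraries were sequenced, per the labels' protocols. HISAT2, FastQC and Trim Galore, and the builds GRCm39 and mm39, are named in the submitters' processing notes; the sources used here do not say how reads were counted, or whether by strand. The log2 values that the authors deposited are named RPKM, but hold log2 RPM with no division by length: a gene without reads has the value of 0.9 reads, and 100% of 256342 values below 2000 reads came out within 0.02 of a whole read. Coordinates in the deposited table are those of GRCm38 (99.7% of 25035 gene IDs overlap GENCODE M21). Genes without reads were set to 0. Oocytes were averaged per female on log2(RPM + 1), a scale on which low genes change less. Genes averaging 1 RPM or more (10987) were compared between 4 and 4 females in R 4.3.3 by limma 3.58.1 (trended eBayes after lmFit), two-sided; p-values were adjusted by Benjamini-Hochberg and called under 0.05. The fit was tested on simulated data. Females are separate animals; floors in reads cover counting error alone, as amplified reads are not molecules.

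Each lane held 1 female of each genotype per the labels, and differences within lanes compare these lane mates. The main fit and the permutation tests did not pair females by lane. Lane mates' deviations correlated at -0.0403, 0.0835, 0.342 and 0.317 in lanes 1 to 4. Between females of different genotype and lane the correlations ran from -0.358 to 0.313, with a median of -0.0546. Alternatives were the lane as a block, a pseudocount of 0.1, no filter, reads in listed genes as denominator, quantile normalization, single oocytes, voom on recovered reads and leaving out each female. The plan had allowed for RPKM; RPM took its place. Full values were given for Med28, members with an unadjusted p under 0.05, paralogue pairs, the 2 members of each module with the smallest p, the 3 highest and 3 lowest per kb, and up to 3 genes of each other list. The members and lists were chosen with earlier results of these data known. Not analysed here were the water-only library and oocyte A of the transgenic lane 1 female.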

Additional observations from a re-analysis of the deposited data

Results flagged for a closer look

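Dixon's ratio is the distance of a female to the nearest of the others divided by the range, here on female means of log2(RPM + 1). By chance it passes its critical value in about 1 in 20 groups. Of 66 groups of 4 females (33 members in each genotype) 4 held a female above that value, a share near this rate. Of these, 3 were the wild-type female of lane 4: Med28 stood at 547 RPM in her against 295 to 316 RPM in the other wild-type females, Med30 at 539 RPM against 723 to 759 RPM, and Cdk8 at 32.6 RPM against 61.2 to 66.9 RPM. The other was Med22 in the wild-type female of lane 3, at 294 RPM against 377 to 382 RPM.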

How the results depend on the processing

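Over 16 alternatives, 512 differences of the 32 tested members were recomputed: 482 kept their direction and side of the threshold, 29 reversed and 1, that of Med28, came to pass. In 64 of these, from the lane block and from no filter, the difference is the main one by construction, so its direction could not change. Leaving out 1 female moved 30 of the 32 members by over 1.5 times or reversed them at least once, all but Med4 and Med11; leaving out the lane 1 transgenic female moved 24 of them, and the lane 4 wild-type female 20. Directions held in every alternative for 21 members, among them Med28 (-0.67 to -0.37), Med6 (-0.67 to -0.34), Med4 (-0.40 to -0.26) and Med16 (0.47 to 1.30). Fitting single oocytes with a lane block called 12 genes, of which 1 was a member, Med28 (-0.54, limma adjusted p = 0.0289, and 0.0289 to 1 over its alternatives). Med28 was picked for being lower in all 4 lanes, so its range and this p describe it and are not evidence for it. On female means a replicate block for the lane called 0 genes and 0 members, as without it, and the block changed no call. Without the transgenic female of lane 1 the count was 1 gene (0 to 1 over the females left out), and no member. Med22 reversed to -0.0111 with reads in listed genes as denominator, -0.0136 with quantile normalization, -0.0534 with single oocytes and -0.0491 with single oocytes and lane. Ccnc reversed to 0.0018 with quantile normalization, and Med12l to -0.0104 with single oocytes and lane and -0.0252 with voom.

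Leaving out each female gave -0.13 to 0.23 for Med17, -0.17 to 0.21 for Med22, -0.13 to 0.23 for Med25, -0.0908 to 0.37 for Med26, -0.0176 to 0.39 for Med1, -0.0145 to 0.22 for Med14, -0.0346 to 0.33 for Med12, -0.17 to 0.24 for Med12l, -0.27 to 0.0175 for Med13l, -0.13 to 0.21 for Cdk8 and -0.12 to 0.0628 for Ccnc. The ratio differences ran from -0.0173 to 0.24 for Med12 to Med12l, -0.15 to 0.17 for Med13 to Med13l and -0.28 to 0.0602 for Cdk8 to Cdk19, which was -0.54 with a pseudocount of 0.1. The cause of these reversals was not tested. Depth limits Med29, with at most 18 reads in an oocyte.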
